A study of Mus musculus with 2 samples.

Results

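Short sites of m6A enrichment, no longer than 100 bases, were examined in pancreatic islets of 2-week-old 129sv mice. N6-methyladenosine (m6A) immunoprecipitation sequencing pulls down fragmented RNA with an antibody against m6A and sequences the captured RNA beside an input library made without the pull-down. The labels give 1 m6A immunoprecipitate library and 1 input library, both from islets of that strain and age with no treatment or genetic change named. There are no replicates and no other age or strain, and the labels do not say how many animals were pooled. The antibody was polyclonal, and the reads were longer than any of these sites, per the labels' protocols. Members were chosen by the length of the site and the number of sites on its gene, both measured here. They were all sites of 100 bases or less on genes with fewer than 10 sites in the authors' deposited table, which gave 897 of 8987 sites (9.98%) on 739 of 4959 genes (14.9%). A further 62 sites of this length lay on genes with 10 or more sites and were left out by that rule. Lengths, folds, scores and false discovery rates come from 1 comparison of these libraries, so all of them are described without a test and without an error. Neither sequencing depth nor gene levels in the input are known here.

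m6A is a common mark inside messenger RNAs. It is written in the nucleus by a complex around METTL3 and METTL14 on adenosines in the DRACH context, and reader proteins that bind it affect splicing, translation and decay. In mammalian transcripts it is known to be concentrated in long internal exons and around stop codons, and to be scarce close to splice junctions. The antibodies also bind N6,2′-O-dimethyladenosine, a related mark found on adenosine beside the cap. Islets are clusters of endocrine cells that make and secrete insulin, glucagon and other hormones, and at 2 weeks of age beta cells are still maturing.

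The ends of short sites could be read for the few that lay within a RefSeq promoter window of GRCm38.p6, which holds 250 bases before and 50 after an annotated start. Of 18 short sites with a readable last edge, 18 were followed by GT on the gene's strand, the first bases of nearly every intron (100%, Wilson 95% interval 82.4 to 100%, which covers counting error only). GT made up 4.98% of the positions in the 32851 windows. Of 5 short sites with a readable first edge more than 200 bases from a start of their own gene, 5 were preceded by AG, the last bases of nearly every intron. AG made up 7.69% of window positions. Among all other sites, 121 of 132 last edges (91.7%) were followed by GT and 27 of 47 such first edges (57.4%) were preceded by AG. In other sites of over 100 up to 300 bases, GT followed 76 of 79 (96.2%) and AG preceded 17 of 22 (77.3%). Over 300 bases, these were 45 of 53 (84.9%) and 10 of 25 (40.0%). Of the 18 short sites, those within 200 bases of a start of their gene were not preceded by AG. Examples were Psen2 (TA, 50 bases after a start) and Rpl22 (CT, 135 bases after a start). Exon annotation was not used here, so it was not examined for the other members whether they fill whole exons.

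The 5 short sites above that were preceded by AG and followed by GT are shown whole because they show these borders. Other short sites that could be read at both ends had no AG before them and are not shown whole. Each is given on the gene's strand with 2 bases before and after the site in capitals at the ends, and capitals inside mark DRACH motifs (A, G or T, then A or G, then AC, then A, C or T).
Eif5b, chr1:38032275-38032377, plus strand: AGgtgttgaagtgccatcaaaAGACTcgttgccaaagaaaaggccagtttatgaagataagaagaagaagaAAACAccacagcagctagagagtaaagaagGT
Evl, chr12:108683193-108683263, plus strand: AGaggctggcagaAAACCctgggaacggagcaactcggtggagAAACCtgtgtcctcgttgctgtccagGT
Erc2, chr14:27876585-27876663, plus strand: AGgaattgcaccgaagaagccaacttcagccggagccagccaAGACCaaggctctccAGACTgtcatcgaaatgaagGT
Pex14, chr4:148966220-148966321, minus strand: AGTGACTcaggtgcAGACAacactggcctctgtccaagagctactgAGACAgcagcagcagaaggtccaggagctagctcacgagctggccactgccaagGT
Ehbp1, chr11:22014853-22014956, minus strand: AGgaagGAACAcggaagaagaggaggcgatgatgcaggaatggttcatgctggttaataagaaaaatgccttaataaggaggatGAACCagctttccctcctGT
Eif5b, a translation initiation GTPase, had a fold of immunoprecipitate over input of 10.59 on 99 bases. Evl, an actin regulator, had 9.48 on 67 bases, and Erc2, a scaffold of the presynaptic release zone, 7.85 on 75 bases. Pex14, a membrane protein of peroxisomal import, had 6.23 on 98 bases, and the endocytic adaptor Ehbp1 had 4.17 on 100 bases. Each of the 5 held 2 or 3 DRACH motifs.

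DRACH was common in readable short sites and in the promoter windows alike. Of the 16 short sites that could be read whole, 10 (62.5%, interval 38.6 to 81.5%) held DRACH on the gene's strand and 10 on the opposite strand. In all 32851 windows, the first 56 bases, the median length of those sites cut to a whole base, held it in 63.7%. Those bases lie before the annotated start and are not transcript sequence from that start. The first 50 bases after the start held it in 54.4% of windows. A stretch of this length often holds DRACH, so a match is a description and not a mapped methylated base.

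The lengths of short sites had a median of 81 bases, quartiles of 67 and 92 and a minimum of 5. A length divisible by 3 was found for 350 of 897 (39.0%), against 38.2% of all other sites and 43.5% of sites of over 100 and up to 150 bases. Coding exons that keep the reading frame have such lengths. At the limit itself, 82 members of 98 to 100 bases had a median fold of 6.4, and 79 sites of over 100 and up to 103 bases on genes with fewer than 10 sites had 6.74. The 29 members on genes with 8 or 9 sites had a median fold of 7.66, and 35 short sites on genes with 10 or 11 sites had 7.97.

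**Figure D1:**
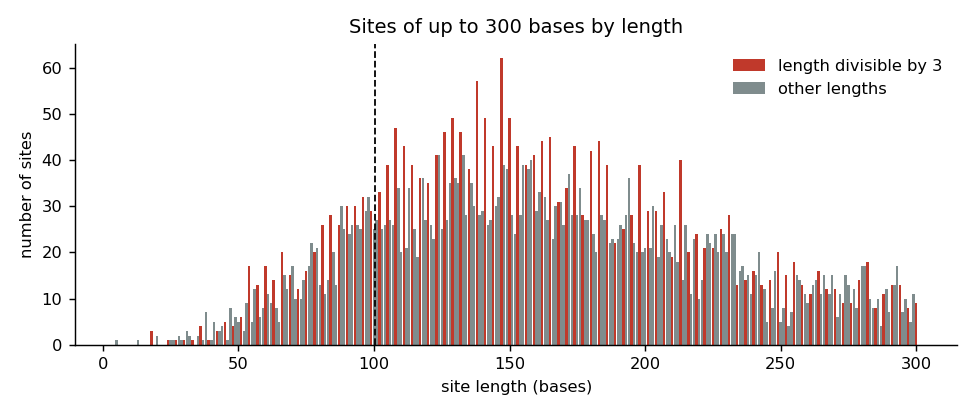
Number of sites (vertical axis) at each length in bases (horizontal axis) for all sites of up to 300 bases; red bars are lengths divisible by 3, grey bars the others, and the dashed line marks the limit of 100 bases. Red bars stand above their neighbours at many lengths, and 39.0% of the members have a length divisible by 3.

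Short sites had somewhat lower folds than the rest of the list. Their median fold was 6.63, with quartiles of 5.37 and 8.83, against 7.2, 5.49 and 10.05 for all other sites. A fold of at least 10 was reached by 161 of 897 short sites (17.9%), where the share was 24.6% over all sites and 25.3% over all other sites. Folds of 20 or more were found at 15 of 897 short sites, 349 of 8090 others and 364 of all 8987 sites. By length, median folds were 5.85 up to 50 bases, 6.95 from 51 to 75, 6.71 from 76 to 100, 6.94 over 100 and up to 150, 7.72 from 201 to 300 and 8.13 from 301 to 500, and 6.3 over 1000 bases. The median thus did not rise steadily with length. Length was the value that chose the members and comes from the same comparison, so nothing beyond this description can be read from the difference.

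**Figure D2:**
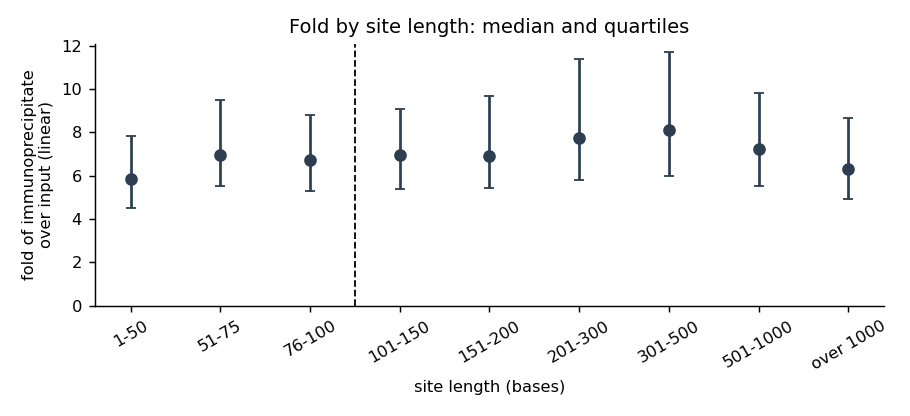
Median fold of immunoprecipitate over input (points) with quartiles (bars) for all sites in 9 classes of length; the dashed line marks the limit of 100 bases. The median is 5.85 in the shortest class, 8.13 at 301 to 500 bases and 6.3 over 1000 bases.

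The caller's score, minus 10 times the log10 of its p, was also lower, with a median of 105.2 for short sites and 135.9 for all other sites. The caller's false discovery rate was below 100% at 139 short sites (15.5%), where the share was 25.7% over all sites and 26.8% over all other sites. In short sites this rate followed the score, since the 758 with a rate of 100% had scores of at most 285.61 and the rest had scores from 286. A rate below 50% was found at 14 of 897 short sites, 423 of 8090 other sites and 437 of all 8987 sites. The lowest rate was 27.16% among short sites and over all sites alike.

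Within the same gene, the short site was more often the weaker one. Exactly 1 short and 1 longer site lay on 214 genes, and the short site had the lower fold on 133 (62.2%), the higher on 80 and an equal one on 1. Median folds were 6.48 for the short and 8.17 for the longer site of these genes, with a median ratio of 0.8. Over the 560 genes with both kinds, medians per gene were lower for short sites on 342 and higher on 217. Sites of 1 gene share its transcript level, which a comparison within genes holds equal only as far as both sites are in the same transcripts. The remaining 179 genes had short sites only, and on 165 of them it was the gene's single site. Short sites were thus alone on their gene at 18.39%, against 34.61% of all other sites and 32.99% of all sites.

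**Figure D3:**
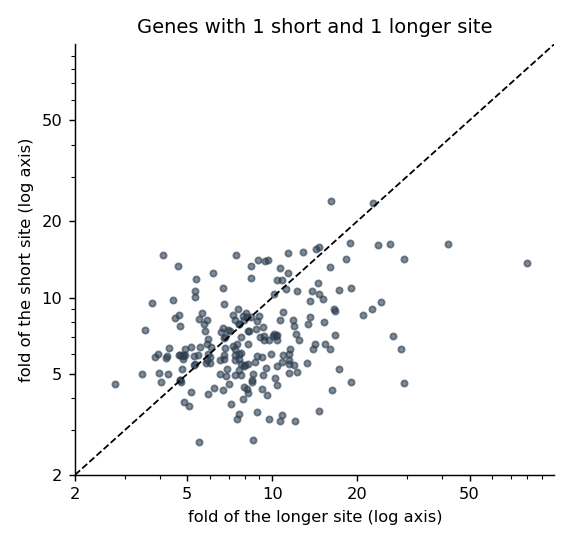
Fold of the short site (vertical, log axis) against fold of the longer site (horizontal, log axis) for the 214 genes with exactly 1 of each; each point is a gene and the dashed line marks equal folds. On 133 genes the point lies below the line.

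Short sites were spread along the body of their genes. Strand was known for 728 short sites, and their midpoints had a median position of 49.2% of the gene span from its start, with quartiles of 19.99% and 71.1%. For all other sites the median was 49.8% and the quartiles 6.98% and 79.6%, and more of the other sites lay near the ends. With the span cut into 10 equal bins, the first bin held 15.7% of short and 26.5% of other sites, and the last bin 6.2% and 13.5%. Sites of over 100 and up to 150 bases were close to the short sites, with 14.27% in the first bin and 7.85% in the last. A site reached the last base of the gene at 0 of 728 short and 211 of 6469 other sites (3.26%). Among sites of over 100 and up to 150 bases, 0.07% did so.

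**Figure D4:**
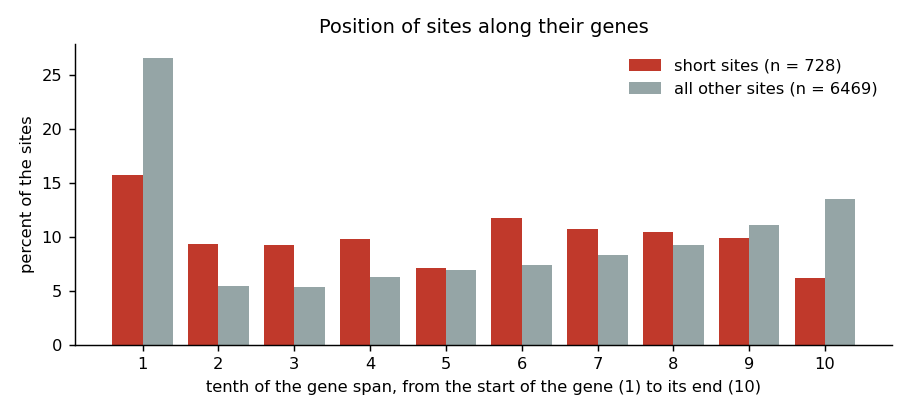
Percent of sites (vertical axis) in each of 10 equal bins of the gene span, from the gene's start (1) to its end (10), for sites with known strand; red bars are short sites and grey bars all other sites. The first and the last bin hold 15.7% and 6.2% of the short sites, against 26.5% and 13.5% of the others.

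Some short sites began exactly at an annotated transcript start. This was so at 38 of 728 (5.22%), against 878 of 6469 other sites (13.6%). Of sites of over 100 and up to 150 bases, 5.55% began at a start. Within 10 bases of a start lay 45 short sites. Folds at the 38 ran from 4.93 to 21.56 with a median of 8.065, against 6.585 for the 690 elsewhere. A fold of at least 10 was reached by 11 of the 38 (28.9%), against 17.5% of the 690 and 24.6% of all sites. The first 30 bases of the 6 strongest are shown because they carry the base beside the cap, which is in capitals. No DRACH motif lay in these stretches.
Ccdc124, chr8:70873461-70873490, minus strand: Gacacgcgaccgagccggtgccgggggaag
Ankrd28, chr14:31830386-31830415, minus strand: Cttcaacgtagccggccacctacccgccgg
Vps13d, chr4:145194976-145195005, minus strand: Ttgaggagtggcggagaggaagcacctcgc
Ccdc9, chr7:16286766-16286795, minus strand: Gtggtgcgggccggaagtgacgagtgaggc
Sptbn4, chr7:27396169-27396198, minus strand: Cttcctacgaggggatcaaatttgtcctgg
Vmp1, chr11:86683807-86683836, minus strand: Gagttccggttggctggagcccagcggcgg
Ccdc124, a ribosome-binding protein, had a fold of 21.56 on 32 bases, and Ankrd28, a regulatory subunit of a protein phosphatase, 19.92 on 89 bases. The lipid transfer protein Vps13d had 17.7, Ccdc9 16.07, the spectrin Sptbn4 15.44 and the autophagy protein Vmp1 13.35.

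None of these 6 began with A. Over the 35 short start sites of at least 50 bases, 3 (8.6%, interval 3.0 to 22.4%) began with A, against 22.9% of 878 other start sites and 34.4% of all windows. DRACH lay in the first 50 bases of 13 of the 35 (37.1%, interval 23.2 to 53.7%), of 34.7% of the other start sites and of 54.4% of all windows. On the opposite strand these shares were 45.7%, 41.5% and 55.2%. The windows include starts of genes with no site in the list. Some of the 38 are named for their role in secretion, picked by eye after the values were seen. They were the membrane fusion ATPase Nsf (fold 10.62), the Rab3 regulator Rab3gap1 (10.18), the tethering subunits Vps41 (7.84) and Exoc3 (5.85), and the islet cell autoantigen Ica1 (7.48). The circadian factor Clock had 7.92 and the decay factor Upf2 8.19.

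Short sites on collagen genes were singled out after their values were seen. Collagens are the triple-helical proteins of the matrix around islets, built of Gly-X-Y repeats, and their helical exons are known to be short and to code for whole repeats. Of 74 sites on 17 collagen genes, 30 on 12 genes were members. Their folds ran from 3.25 to 16.55 with a median of 7.42. Lengths divisible by 9, the bases of 1 repeat, were found for 18 of the 30 (60%), against 118 of 867 short sites on other genes (13.6%). Lengths divisible by 3 were found for 28 of 30 (93.3%), against 37.1% on other genes, and 6 collagen members were exactly 54 bases long.

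**Figure D5:**
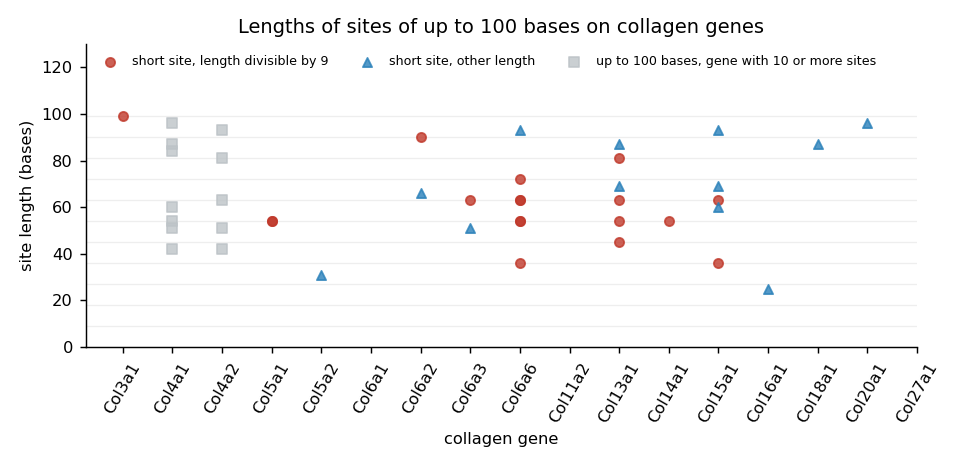
Length in bases (vertical axis) of sites of up to 100 bases on the 17 collagen genes with a site (horizontal axis); red circles are members with a length divisible by 9, blue triangles other members, grey squares sites on genes with 10 or more sites, and pale lines mark multiples of 9; darker circles are 2 members of equal length. Of 30 members, 18 are red circles.

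Col6a6, a chain of the beaded-filament collagen VI, had the most members of any gene. Its 7 members were 63, 36, 63, 54, 72, 54 and 93 bases long, with folds of 13.38, 5.69, 7.34, 12.96, 13.92, 9.5 and 6.62 in order of position. Col13a1, a transmembrane collagen, had 6 members of 81, 45, 63, 69, 54 and 87 bases with folds of 8.17, 7.36, 8.17, 13.07, 9.02 and 6.34. Col15a1, a collagen of basement membrane zones, had 5 members with folds from 4.36 to 9.21. The highest fold of a collagen member was 16.55, on Col6a2. Col4a1 and Col4a2, the main collagens of basement membranes, had 11 and 12 sites and so were left out by the rule. They carried 7 and 5 sites of up to 100 bases, with folds of up to 18.65. Of these 12 sites, 12 had a length divisible by 3 but only 3 (25%) one divisible by 9. With them, the share divisible by 9 was 50% of 42 collagen sites of up to 100 bases, and over all 74 collagen sites of any length it was 45.95%.

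Short sites lay on several genes of the secretory machinery. Of 35 secretory genes of beta cells, 8 had any site and 3 a short one. Scg5, the chaperone of prohormone convertase 2, had its single site on 54 bases at chromosome 2, 113780634 to 113780687, with a fold of 18.1, a score of 2715.67 and a rate of 30.2%. Chgb, the granule protein chromogranin B, had a member of 94 bases with a fold of 8.83 between longer sites with folds of 21.38 and 9.68. Stx1a, the syntaxin of exocytosis, had members of 100 and 71 bases with folds of 7.05 and 6.59. By the authors' pathway annotation, 13 of 30 synaptic vesicle cycle genes with a site (43.3%) had a short one, against 14.9% of all genes with a site and a median of 12.8% over 146 pathways of at least 20 such genes. The highest share of all was 12 of 23 (52.2%), in protein digestion and absorption, a pathway that includes collagen genes.

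The synaptic vesicle genes with short sites included genes of fusion, acidification and recycling. The clathrin light chains Cltb and Clta had folds of 11.79 on 47 bases and 7.55 on 38 bases. The proton pump subunit Atp6v1e1 had 10.96, and the calcium sensor Syt1 had 5.45 on 78 bases. Endocytosis genes had a short site on 31 of 121 (25.6%), and genes of insulin secretion on 6 of 27 (22.2%). FoxO signalling genes had a short site on 1 of 49 (2%), and insulin signalling genes on 7 of 57 (12.3%). These pathways were picked after their values were seen, share genes and were not matched on exon length or input level.

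Splicing factors were counted next, beside the same 14.9%. Of 30 splicing factors in the list used, 17 had any site and 4 a short one, the U1-associated Luc7l (fold 10.79), the U1 protein Snrnp70 (8.18), Srsf11 (6.78) and Rbm25 (6.41). By the pathway annotation, 23 of 68 spliceosome genes with a site (33.8%) had a short one, against 14.9% of all genes with a site. The highest were Puf60, a splicing factor that binds polypyrimidine tracts (38.03 on 97 bases), Ccdc12 (25.41 on 68 bases), the helicases Ddx23 (23.08) and Ddx46 (16.02), and Cwc15 (14.21). Puf60, Ccdc12 and Ddx23 are among the 12 largest folds of all members.

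Among genes that write, remove or read m6A, Mettl14, the RNA-binding partner of METTL3, had short sites. It was 1 of 11 such genes with any site, of 22 in the list, where 14.9% of all genes with a site had a short one, so the count is near the general share. Its members of 88, 88 and 89 bases had folds of 10.25, 8.19 and 5.8, beside a site of 229 bases with 5.86. All 4 had a false discovery rate of 100%. Drosha, the nuclease that starts microRNA processing, had members of 66, 93, 93 and 47 bases with folds of 4.63, 12.68, 8.68 and 6.27. No member overlapped a microRNA hairpin of the RefSeq table (0 of 897), and 10 of 8090 other sites did.

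The counts of the other gene lists stand beside the 14.9% of all genes with a site that had a short one. Of 26 islet transcription factors, 11 had a site and 0 a short one. Of 31 chromatin regulators, 28 had a site but only Kmt2c a short one (7.27), and chromatin regulators held 117 sites in all. Of 26 genes of insulin, PI3K and mTOR signalling, 16 had a site and 3 a short one. These were Mtor (7.43 and 3.71), its inhibitor Tsc2 (7.42) and the growth factor Igf1 (3.54). Of 19 genes of the unfolded protein response, 11 had a site and only Wfs1, the wolframin of the endoplasmic reticulum, a short one (7.29 on 100 bases).

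Markers of other cells were counted in the same way, beside the same 14.9%. Of 10 endothelial markers, 6 had a site, and the VEGF receptors Flt1 (5.91) and Kdr (5.44) had a short one. Of 10 duct markers, 6 had a site and the adhesion molecule Epcam a short one (10.41 on 45 bases). Of 10 markers of fibroblasts and other stromal cells, 4 had a site, and Rgs5 (4.06) and Col3a1 (3.25) had short ones. The listed acinar, leukocyte and glial markers and markers of alpha, delta and PP cells had 0 short sites, with 2 of 14, 1 of 10, 1 of 8 and 4 of 10 genes having any site. The amylase gene Amy1, which was not in the acinar list, had a short site (4.04 on 91 bases, rate 44.48%). Which cells the RNA came from was not tested.

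The largest folds fell on genes of many kinds. Rsph3a and Rsph3b, near copies of each other that code for a cilium protein, had the highest. On chromosome 17, sites of 88 bases at 6941669 to 6941756 (Rsph3b) and 7952549 to 7952636 (Rsph3a) had folds of 449.81 and 162.49. Both genes also had a site of 204 bases, with folds of 13.65 and 15.52, and the highest fold of any other site on either gene was 15.52. Whether reads at these copies map to a single place was not tested. After Puf60 followed the threonyl-tRNA synthetase Tars (28.5), Dip2c (28.26), the Hsp70 cochaperone St13 (26.79), Ccdc12 and the zinc finger gene Zfp791 (24.39). The last of the 12 were the tubulin folding cofactor Tbca (24.13), the calcium channel of the endoplasmic reticulum Tmco1 (23.54), the scaffold Iqgap2 (23.15) and Ddx23.

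The highest score, 3100, was shared by 4 members. Besides both Rsph3 genes these were the translation initiation subunit Eif3g (fold 16.7 on 89 bases) and the amyloid-precursor-like protein Aplp1 (14.11 on 100 bases). The oligosaccharyltransferase subunit Rpn1 followed with a score of 2873.53 and a fold of 15.07. The 6 shortest members had scores from 55.3 to 89.05. Ctps2, a CTP synthase, had a site of only 5 bases with a fold of 5.72. The 3 of 18 bases lay on Wdr73 (8.58), the actin regulator Nckap1 (4.12) and the vesicle motor Kif1a (3.87). Members of 20 bases lay on Fhit (3.27), a diadenosine hydrolase, and on the Sin3 complex subunit Suds3 (6.11), a gene with a further member of 72 bases and a fold of 16.83.

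Most genes had 1 short site. A single member lay on 619 genes, 2 on 94, 3 on 20 and 4 or more on 6, which were Col6a6, Col13a1, Col15a1, Drosha, Ap1ar and 4930506M07Rik. The members of Ap1ar, an adaptor of AP-1 vesicle traffic, were 99, 97, 27 and 49 bases long, with folds of 7.45, 7.93, 7.63 and 5.43. Those of 4930506M07Rik were 98, 95, 61 and 53 bases long, with folds of 4.89, 5.56, 8.72 and 10.62. Along the genome, introns included, short sites were at least 552 bases from the nearest other site of their gene. Where there was another site, the median gap was 3956 bases, against 5709 for other sites. Another site lay within 1000 bases of 62 short sites (6.91%) and of 5.22% of all other sites. Gaps within spliced transcripts were not measured.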

How the data were processed

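Per the labels' protocols, cutadapt 1.9.3 removed adaptors, HISAT2 2.0.4 made the alignments, MACS found the peaks, and the authors' own scripts set these on transcripts. The deposited score is minus 10 times log10 of the caller's p, the deposited fold is a linear ratio over the input, and the deposited false discovery rate is in percent, per the file headers. No source used here says how peaks were trimmed or split. The protocol names UCSC HG19 and the processing notes mm10. Of 8987 sites, 8924 overlapped the GRCm38.p6 span of their gene, 893 of 897 members among them, so coordinates are GRCm38, counted from 1. Strand and sequences came from RefSeq promoter windows. These gave the strand of the gene for 728 placed members. Sequence could be read only inside the windows, with 18 last edges readable and 16 members read whole. Sites were summarised with Python 3.11.15 and pandas 2.3.3, and the reading of edges and gaps was tested on simulated data. No test was possible with 1 library per group. The DRACH share over all members was not run, because only windows around starts could be read.

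Members, gene lists and comparisons were chosen with earlier results of these data known. Named genes are the 12 largest folds, the 5 highest scores, the 5 lowest rates, the 5 shortest members (and 1 more of equal length), the 3 genes with most members and up to 4 members per list. Further genes are named from groups seen afterwards, which are collagens, sites at starts, pathways, genes with sequence shown and genes with several members. Amy1 was also picked after its values were seen. Some items are not reported here. Alternatives were other length limits, no limit on sites per gene, stricter limits on fold, p and rate, and only the site of largest fold per gene.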

Additional observations from a re-analysis of the deposited data

How the results depend on the processing

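Of 83 values recomputed under alternatives, 61 stayed within the 95% interval of the reported value (counts within 1.5 times) and 22 moved. These intervals cover the spread over sites of 1 comparison, which are not replicates, and serve only as a yardstick for the size of a shift. Alternatives for the GT and collagen shares were chosen after seeing the data. With limits of 120 and 150 bases there were 1483 and 2528 sites, and at 150 bases the median score was 111.15. With a fold of at least 5, the median fold was 7.38, the median score 121.86 and the share with a fold of at least 10 was 22.39%. With p of at most 1e-10, 473 sites stayed, with a median fold of 8.29, a median score of 185.24, 33.19% at a fold of at least 10, 14.38% alone on their gene and a median position of 43.36%. With a rate below 100%, 139 stayed, with a median fold of 12.13, a median score of 509.29, 68.35% at a fold of at least 10, 10.79% alone on their gene and 4 collagen sites, of which 100% had a length divisible by 9. These limits keep stronger or longer sites by construction. With only the site of largest fold kept on each gene, 20.7% had a fold of at least 10 and 22.33% were alone. This choice favours high folds and drops sites only from genes with several members. Another site lay within 200 bases at 0% and within 5000 bases at 46.15%. The other motif planned, GGACT, lay in 2 of 35 short start sites. No paired analysis was possible because each group has 1 library. Unknown depth leaves every fold without an error.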

Other observations

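Some genes with related symbols carried short sites of the same length, though most such pairs did not. Among 359 pairs of short sites on different genes whose symbols share a stem, 26 (7.24%) had equal lengths, against 1.98% of all 401638 pairs on different genes. The pairs included the receptor kinases Adrbk1 and Adrbk2 (77 bases, folds 4.64 and 6.57), the ARF exchange factors Cyth1 and Cyth3 (83 bases, 5.23 and 5.42) and the ARF regulators Smap1 and Smap2 (86 bases, 5.17 and 10.5). The kinesins Kif1a and Kif1b (77 bases, 7.42 and 7.19), the synapsins Syn1 and Syn2 (58 bases, 8.36 and 5.66) and the SNAREs Vti1a and Vti1b (59 bases, 4.11 and 7.03) were also among them. The syntaxins Stx1a, Stx2 and Stx8 each had a site of 100 bases, with folds of 7.05, 7.35 and 5.36. This was looked for after equal lengths had been seen in some pairs, pairs share members, length is a value that chose the members, a shared stem does not always mark related genes (as for Polr2f and Polr3e), and whether reads are shared between such genes was not tested.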
